A study of Homo sapiens with 16 samples.

Results

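The interferon response genes were a list of 45 genes that interferons are known to switch on, matched by gene symbol to the 78894 genes of the deposited count table. All 45 were found there, and 39 of them passed the filter on low counts that left 16790 genes for testing. Interferons act on neighbouring cells through surface receptors whose kinases, JAK1 and TYK2, phosphorylate transcription factors such as STAT2. STAT2 acts in a complex with IRF9 that binds a DNA sequence called the interferon-stimulated response element (ISRE), while interferon gamma acts mainly through a different sequence, the gamma-activated site (GAS). The genes that respond encode proteins that sense viral RNA, degrade it, block its translation, trap virus particles or process antigens, and in uninfected epithelial cells many are held low.

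The RNA came from 16 wells of MCF10DCIS.com, 4 a condition, and was sequenced after poly(A) selection. MCF10DCIS.com is a human breast epithelial line of the MCF10A series that forms lesions resembling ductal carcinoma in situ. All 4 conditions derived from 1 clone in which Cas9 had removed PCSK5, a proprotein convertase that cleaves secreted precursors, and which had been recovered in GDF11, a ligand of the TGF-beta family. A tetracycline-regulated, V5-tagged PCSK5 that the guide RNA cannot target was then put back as the T288P, M452I or WT (wildtype) allele. Each allele was 1 hygromycin-selected polyclonal line, grown in 3 dimensions with matrigel, and all wells received 1 µg/ml doxycycline from day 4 to induce the allele and were harvested on day 8. The groups were the T288P line with 250 ng/ml recombinant mature GDF11 throughout (T288P+GDF11), the M452I line, the T288P line and the WT line, the last 3 without added GDF11. Replicates were wells of the same line, so p-values measure the spread between wells and do not separate an allele from the line that carries it.

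The libraries held 28452772 to 50760462 counts each, with 21777 to 25335 genes detected. PCSK5 itself ranged from 25.3 to 49.2 CPM (counts-per-million values scaled by library) in T288P+GDF11 wells, from 25.6 to 66.7 CPM in M452I wells, from 26.4 to 56.4 CPM in T288P wells and from 33.1 to 57.8 CPM in WT wells, so its RNA was present in all wells and the groups overlapped. The labels' epithelial identity was borne out by its markers: all 8 listed epithelial genes had counts, with sums of 9074 to 10070 CPM in T288P+GDF11 wells, 10400 to 12570 CPM in M452I wells, 10110 to 12390 CPM in T288P wells and 11260 to 12120 CPM in WT wells. The 6 immune markers summed to at most 1.15 CPM in any well. Of the 3 plasmacytoid dendritic cell markers, CLEC4C and LILRA4 had 0 counts in all wells. The other, IL3RA, had 58 counts over all wells and at most 0.301 CPM in any well. A pair of wells stood apart from their groups in ribosomal protein RNA. The CPM of 14 such genes summed to 2.63% in M452I replicate 4, against 4.37% to 4.43% in the other wells of that line. T288P replicate 1 had 4.09%, against 3.26% to 3.38% in its group. These percentages are of CPM scaled by library, so they are not shares of the raw counts. M452I replicate 4 also stood apart in some genes outside this set, in both directions. ITGA6 had 1276 CPM there, against 711.5 to 717.7 CPM in the other M452I wells, and TP63 47.5, against 15.4 to 17.5 CPM. LAMB3 was lower there, at 3728, against 4358 to 4497 CPM. The part of this pair of wells in the results was not tested. Without both wells, edgeR called GBP2, ISG20 and OAS3 besides 4 of the 5 members named below for T288P+GDF11 against T288P. That made 7 of 39 members, where 2356 of 17212 genes were called. For T288P+GDF11 against WT, edgeR then called IRF7, ISG20, PARP9 and STAT2 besides the 8 named below. The share of all genes called in that fit is not given here, so this is not read as a gain by the members.

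The promoters of most members carried the ISRE core, searched here as GAAA and GAAA separated by 2 bases of any kind, on either strand. RefSeq promoters (GRCh38.p14, 250 bases before to 50 after each transcript start) were matched for 36 of the 45 members, and 25 of these (69.4%) held at least 1 core, against 4.38% of the 27305 gene symbols with a promoter in the same table. The GAS motif TTCNNNGAA occurred in 12 of the 36 (33.3%), against 9.38% of all symbols. Of 49 ISRE matches over all listed starts, 48 began within 200 bases upstream. The 4 promoters below were chosen because they belong to the signature gene of the list that was nearly silent here (ISG15), to a pair of members higher in T288P+GDF11 wells (IFIT5 and LGALS3BP), and to the member with the highest count level, which was lower in those wells (TRIM25). Each runs 5′ to 3′ on the gene's strand, from 150 bases before the start to 10 after it, with ISRE cores in capitals. They lie at chr1:1013347-1013506 on the plus strand (ISG15), chr10:89414418-89414577 on the plus strand (IFIT5), chr17:78979914-78980073 on the minus strand (LGALS3BP) and chr17:56914040-56914199 on the minus strand (TRIM25).
ISG15: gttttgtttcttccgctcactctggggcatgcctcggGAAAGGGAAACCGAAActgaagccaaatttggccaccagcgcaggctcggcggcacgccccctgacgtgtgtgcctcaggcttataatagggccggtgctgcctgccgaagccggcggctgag
IFIT5: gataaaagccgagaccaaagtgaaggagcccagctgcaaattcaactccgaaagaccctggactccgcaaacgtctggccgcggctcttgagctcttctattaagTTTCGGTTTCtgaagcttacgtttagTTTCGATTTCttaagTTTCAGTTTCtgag
LGALS3BP: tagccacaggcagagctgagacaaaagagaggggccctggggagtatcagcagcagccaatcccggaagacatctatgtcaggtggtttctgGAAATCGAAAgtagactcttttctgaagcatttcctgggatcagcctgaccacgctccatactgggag
TRIM25: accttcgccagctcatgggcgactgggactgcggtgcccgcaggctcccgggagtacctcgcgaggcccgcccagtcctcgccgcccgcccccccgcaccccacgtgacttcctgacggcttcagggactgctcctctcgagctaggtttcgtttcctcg
ISG15 and IFIT5 show the core repeated (2 overlapping cores and 3 separate ones), LGALS3BP shows 1, and TRIM25 shows none in this window.

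**Figure D1:**
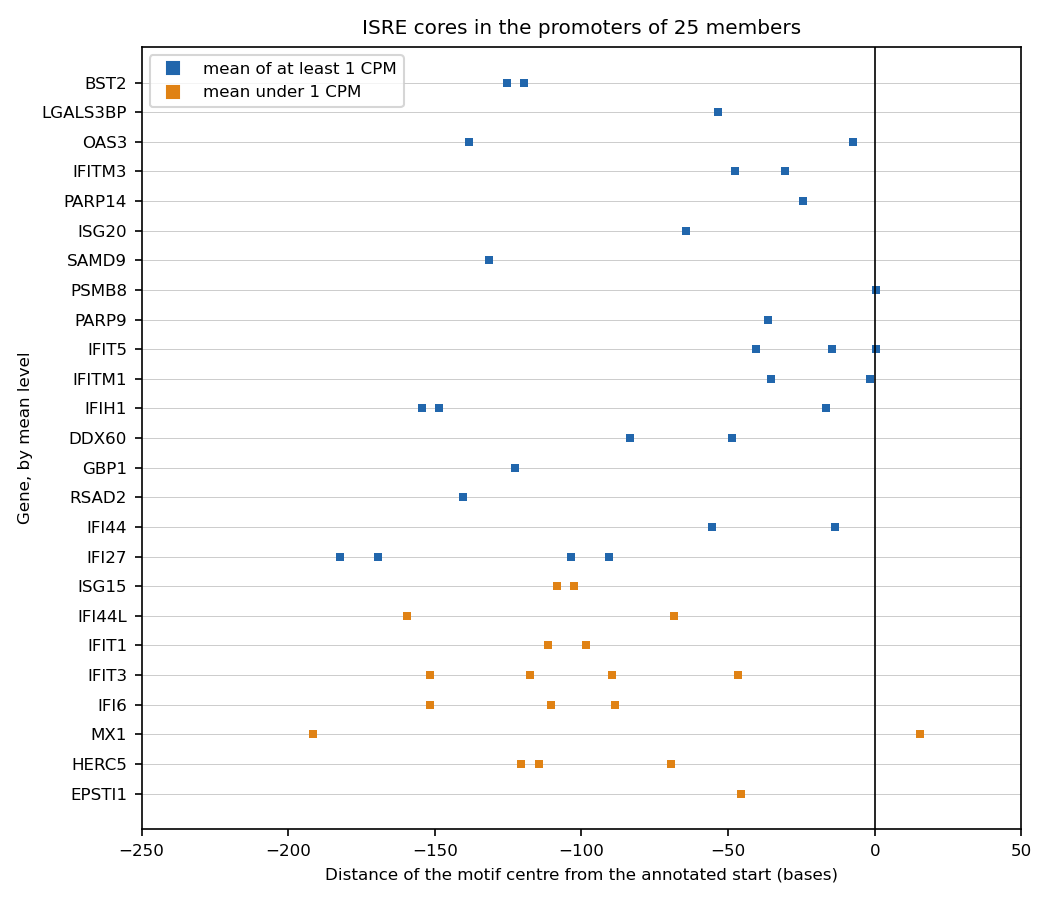
Positions of ISRE core matches (squares, either strand) relative to the annotated start in bases, over all listed starts of the 25 members whose RefSeq promoter held one, ordered by mean level. Most matches lie upstream, and members with a mean under 1 CPM (orange) carry them as do members at 1 CPM or more (blue).

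The core was about as frequent in members near silence as in expressed ones. Of the 12 matched members with a mean under 1 CPM, 8 (66.7%) held an ISRE core, and of the 24 at 1 CPM or more, 17 (70.8%) did. Among the 6 matched members called in any comparison below, 4 held one: IFIT5 with 3 cores, and LGALS3BP, GBP1 and RSAD2 with 1 each. These are matches of letters, and no binding was measured.

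Levels of the members ranged from 0 counts to above 100 CPM. Over the 16 wells, 15 members averaged under 1 CPM, 19 averaged 1 to under 10 CPM, 10 averaged 10 to under 100 CPM, and 1 (TRIM25) averaged above 100 CPM. The median level was 4.60 CPM for the 39 members tested, against 8.92 CPM for all genes tested, and 3.35 CPM over all 45. XAF1, EPSTI1 and CMPK2 had 0 counts in all 16 wells, which together held 583931240 counts, so that 0 allows a level of up to 0.00514 CPM (3 counts, counting error only). MX1 and MX2, GTPases that trap viral nucleocapsids, had 27 and 13 counts in all 16 wells together, and HERC5, the main ligase that attaches ISG15 to proteins, had 15. These 6 genes are the members that did not pass the filter.

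Per length of exon, which allows levels to be compared between genes, the order was led by membrane and secreted proteins. BST2 (tetherin, which holds budding virus at the cell surface) had 62.8 CPM per kilobase, followed by IFITM3 (an inhibitor of virus entry) at 23.2, LGALS3BP (a secreted glycoprotein) at 18.5, TRIM25 (a ubiquitin ligase of the RIG-I pathway) at 14.7, IFITM1 at 8.40, IFITM2 at 6.82 and OAS3 at 6.60 CPM per kilobase. STAT2 had 4.93 CPM per kilobase. ISG15, which encodes a ubiquitin-like protein and is among the genes most strongly induced by interferon, came in at 0.681 CPM per kilobase from 362 counts in all wells. IFIT1 stood at 0.0890, IFI44L at 0.0427 and MX1 at 0.00550 CPM per kilobase. Exons of IFITM1 and IFITM2 overlap on the same strand over 32.5% of the exon bases of IFITM1, and those of IRF9 overlap another gene on the same strand over 48.4% of its bases, so reads of these genes may be split or shared.

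**Figure D2:**
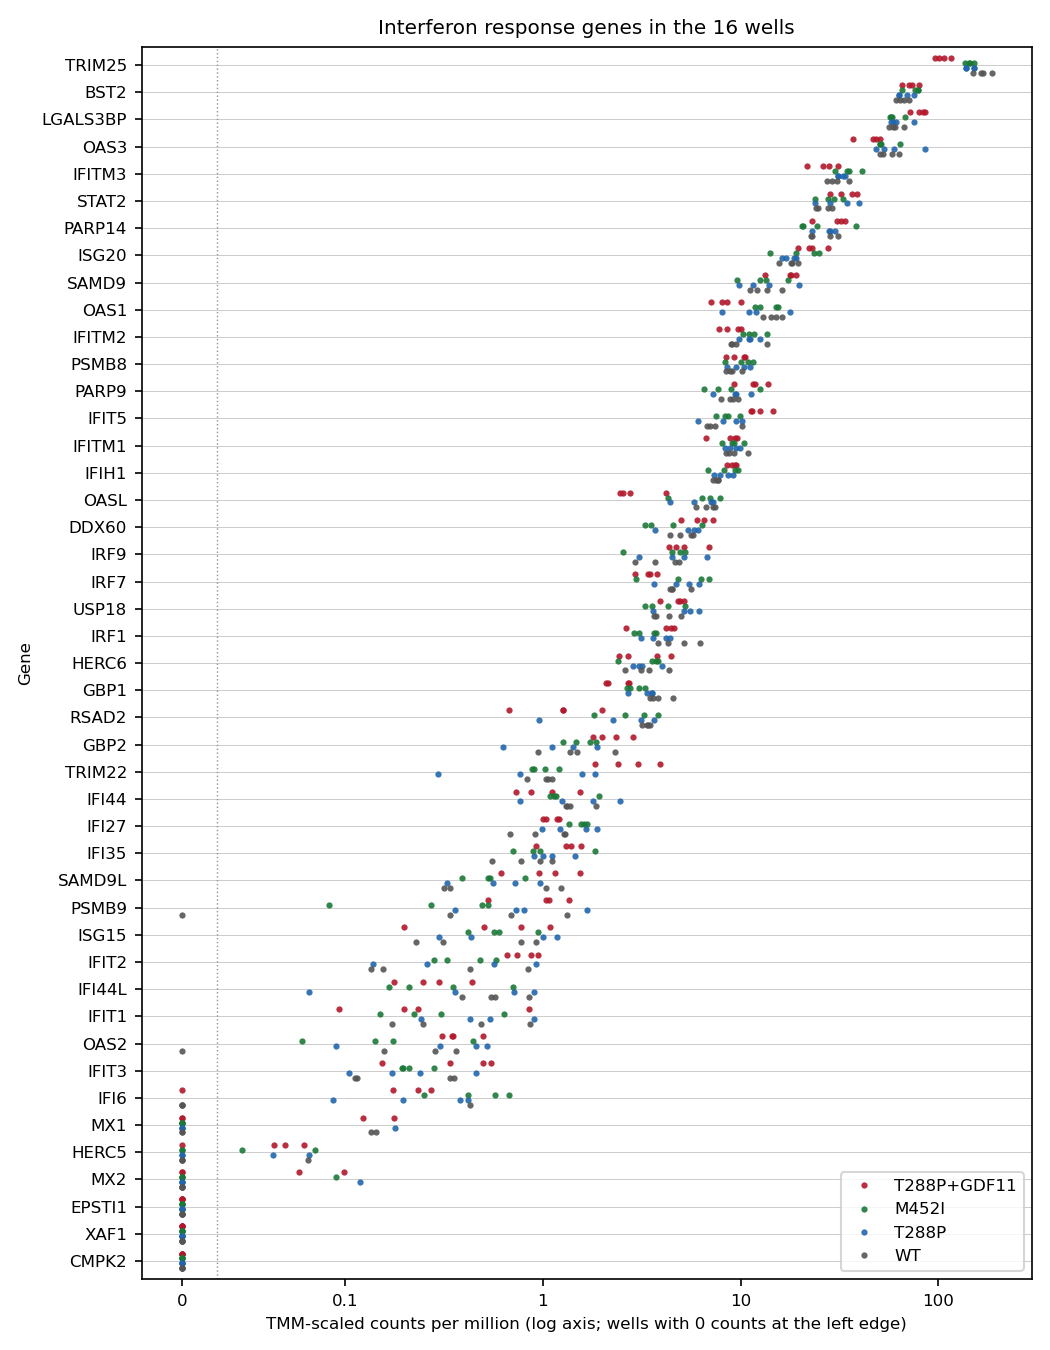
Level of each of the 45 members in each of the 16 wells, in TMM-scaled counts-per-million values (CPM) on a log axis, ordered by mean (points are wells, coloured by group; wells with 0 counts are drawn at the left edge). TRIM25 is the only member above 100 CPM on average, 15 members average under 1 CPM, and for most genes the 4 groups lie on top of each other.

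Addition of GDF11 to T288P cultures changed 5 of the 39 measured members, in both directions. LGALS3BP, TRIM22 and IFIT5 were higher in T288P+GDF11 wells than in T288P wells (3 members, 7.69%, against 5.07% of all genes tested), and TRIM25 and OASL were lower (2 members, 5.13%, against 7.88%). All fold changes and adjusted p-values here and below are from edgeR's quasi-likelihood test, with Benjamini-Hochberg adjustment over the 16790 genes and a call at an adjusted p under 0.05. The 5 calls are 12.8% of the measured members, against 12.9% of all genes tested, so the share called was that of the background. Wells of the groups did not overlap for 5 members (12.8%), against 22.0% of all genes. The median log2 fold change was 0.04 for the members and -0.01 for all genes tested, with 21 members higher and 18 lower. Single wells moved the count of members called, and the count of all genes called moved too. Without T288P replicate 1 the counts were 2 members and 1028 of 17388 genes. They were 7 and 1912 of 17143 without T288P replicate 2, and 2 and 1521 of 17329 without T288P replicate 3. Without T288P+GDF11 replicate 1 they were 2 members and 1195 of 17261 genes. They were 3 and 1649 of 17103 without T288P+GDF11 replicate 2, and 2 and 1195 of 17067 without T288P+GDF11 replicate 3. Without both M452I replicate 4 and T288P replicate 1 they were 7 members and 2356 of 17212 genes.

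TRIM25, which ubiquitinates and thereby activates the RNA sensor RIG-I, was the member with the clearest difference (chromosome 17, bases 56836387 to 56914080, GRCh38). It had 116, 96.5, 100.2 and 107 CPM in T288P+GDF11 wells, against 151, 138, 151 and 138 CPM in T288P wells. Each GDF11-treated well was below each untreated T288P well, and the log2 fold change was -0.46 (SE 0.08, edgeR adjusted p = 0.00181). The M452I wells had 143, 152, 136 and 144 CPM and the WT wells 186, 168, 164 and 150.4 CPM, so the treated wells were the lowest of all 16. T288P+GDF11 against WT gave -0.67 (SE 0.08, edgeR adjusted p = 2.18e-05).

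OASL, an OAS-like protein without synthetase activity that also enhances RIG-I signalling, fell with it (chromosome 12, bases 121019111 to 121039242). Its levels were 2.47, 4.20, 2.75 and 2.54 CPM in T288P+GDF11 wells, against 7.26, 4.37, 7.13 and 5.84 CPM in T288P wells. The groups did not overlap, though the highest treated well (replicate 2) came close to the lowest T288P well. For OASL the log2 fold change was -1.03 (SE 0.22, edgeR adjusted p = 0.00545). In M452I wells OASL had 6.39, 7.86, 7.01 and 4.31 CPM and in WT wells 6.65, 5.92, 7.42 and 7.24 CPM, and T288P+GDF11 against WT gave -1.18 (SE 0.22, edgeR adjusted p = 0.000708).

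LGALS3BP, a secreted galectin-binding glycoprotein, was higher in treated wells (chromosome 17, bases 78971238 to 78980109). It had 83.9, 85.4, 79.9 and 72.1 CPM in T288P+GDF11 wells, against 58.9, 57.8, 61.1 and 75.5 CPM in T288P wells. The treated wells were above 3 of the 4 T288P wells, and T288P replicate 4 lay within their range. The log2 fold change was 0.34 (SE 0.10, edgeR adjusted p = 0.0247), and leaving out T288P replicate 1, 2 or 3, or T288P+GDF11 replicate 1, 2 or 3, each ended the call (edgeR adjusted p 0.0555 to 0.0778). LGALS3BP had 56.6, 57.7, 58.4 and 67.9 CPM in M452I wells and 56.3, 60.5, 66.9 and 59.2 CPM in WT wells. All treated wells were above all WT wells, with a log2 fold change of 0.40 (SE 0.10, edgeR adjusted p = 0.00420).

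IFIT5, the IFIT family member that binds cellular and viral RNA ends, was the best expressed of its family (chromosome 10, bases 89414586 to 89421001). It had 12.6, 11.3, 14.7 and 11.5 CPM in T288P+GDF11 wells, against 6.07, 9.46, 8.17 and 10.2 CPM in T288P wells. All treated wells were above all T288P wells, at a log2 fold change of 0.56 (SE 0.17, edgeR adjusted p = 0.0359). That call ended without T288P replicate 1 (adjusted p = 0.119) or 3 (0.0796), and without T288P+GDF11 replicate 1 (0.0794) or 3 (0.122). The M452I wells had 9.93, 7.50, 8.35 and 8.65 CPM and the WT wells 6.73, 7.01, 10.2 and 7.41 CPM, and T288P+GDF11 against WT gave 0.67 (SE 0.17, edgeR adjusted p = 0.00631). The other members of the family, IFIT1, IFIT2 and IFIT3, averaged 0.410, 0.521 and 0.270 CPM over all wells and were called in none of the 5 comparisons by edgeR in the fit of all 16 wells. IFIT2 was called in T288P+GDF11 against WT by limma-voom and without WT replicate 4.

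TRIM22, an antiviral ubiquitin ligase, showed the largest rise among the members called (chromosome 11, bases 5689689 to 5737089). It had 3.91, 3.04, 2.40 and 1.83 CPM in T288P+GDF11 wells, against 0.296, 1.84, 0.765 and 1.59 CPM in T288P wells. The groups touched, since the lowest treated well fell just under the highest T288P well. The log2 fold change was 1.30 (SE 0.39, edgeR adjusted p = 0.0350), a call that ended without T288P replicate 1 (0.0745) or 3 (0.0956) and without T288P+GDF11 replicate 1 (0.118), 2 (0.0702) or 3 (0.0612). M452I wells had 0.883, 1.03, 0.899 and 1.21 CPM and WT wells 1.12, 1.07, 0.832 and 1.04 CPM, all below the treated wells, and T288P+GDF11 against WT gave 1.46 (SE 0.39, edgeR adjusted p = 0.00942).

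**Figure D3:**
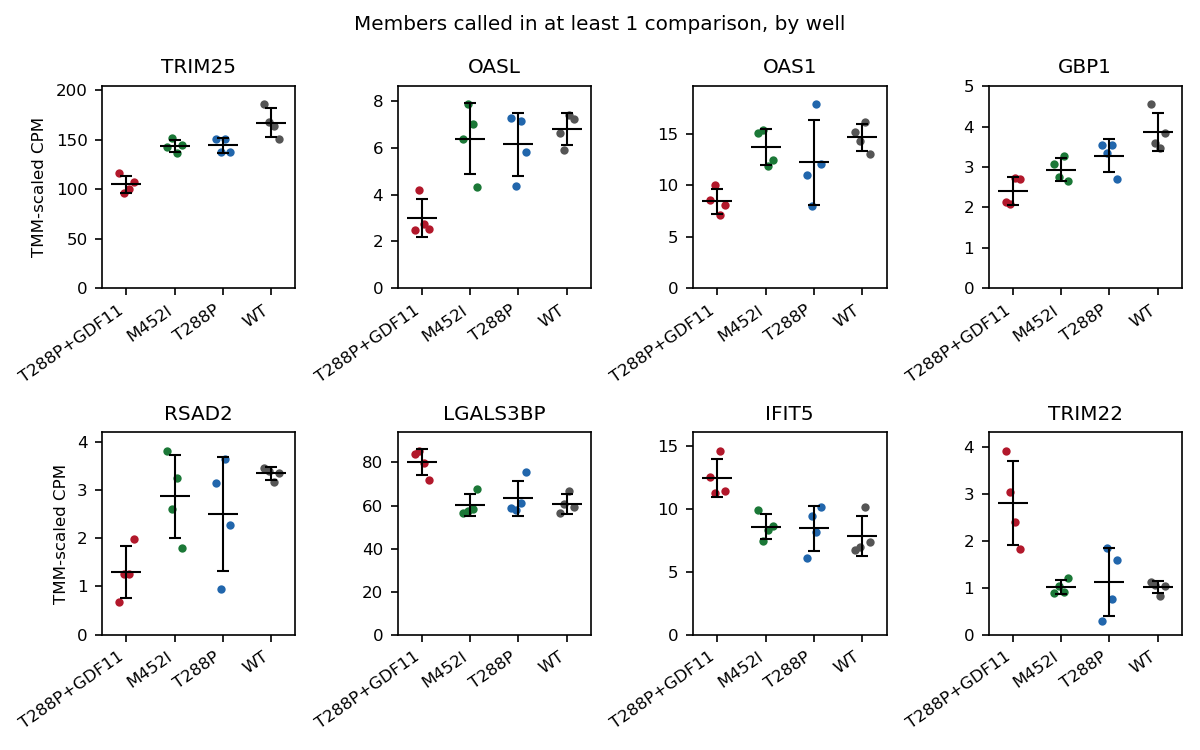
TMM-scaled counts-per-million values (CPM) in each well for the 8 members called in at least 1 comparison (coloured points are wells; black bars are the mean ± SD of 4 wells; each axis starts at 0). In T288P+GDF11 wells TRIM25, OASL, OAS1, GBP1 and RSAD2 lie below the WT wells, and LGALS3BP, IFIT5 and TRIM22 lie above them.

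T288P+GDF11 wells were also set against WT wells, a comparison in which the allele and the added ligand differ together and cannot be told apart. It shares the treated wells with the comparison above. Here 8 of the 39 members were called (20.5%), against 28.9% of all genes. They were 3 higher (7.69%, against 13.8% of all genes) and 5 lower (12.8%, against 15.1%). Besides the 5 genes already described, OAS1, GBP1 and RSAD2 were lower. The median log2 fold change was 0.18 for the members and 0.02 for all genes, with 24 members higher and 15 lower, and wells did not overlap for 10 members (25.6%), against 35.1% of all genes.

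OAS1, one of the synthetases that make the 2′-5′-linked oligoadenylates which activate RNase L, lies on chromosome 12 (bases 112906777 to 112933222). It had 8.53, 10.0, 7.09 and 8.08 CPM in T288P+GDF11 wells, against 15.2, 14.3, 16.1 and 13.0 CPM in WT wells. Every treated well was below every WT well, and the log2 fold change was -0.80 (SE 0.19, edgeR adjusted p = 0.00382). The M452I wells had 15.1, 15.4, 11.9 and 12.5 CPM. The T288P wells spread more widely, at 11.0, 8.03, 17.9 and 12.0 CPM, and against them the log2 fold change was -0.53 (SE 0.19, edgeR adjusted p = 0.0661), which did not pass, though DESeq2 and the fit without T288P replicate 2 called it.

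GBP1, a guanylate-binding GTPase of the interferon gamma response, lies on chromosome 1 (bases 89052319 to 89065360). Its levels were 2.15, 2.08, 2.73 and 2.69 CPM in T288P+GDF11 wells, against 4.56, 3.61, 3.48 and 3.83 CPM in WT wells. All treated wells were below all WT wells. The log2 fold change was -0.68 (SE 0.18, edgeR adjusted p = 0.00819), and without a filter on low counts the adjusted p was 0.0531. M452I wells had 3.07, 2.75, 3.29 and 2.65 CPM, all below the WT wells, and T288P wells 3.55, 3.36, 3.55 and 2.69 CPM, overlapping both other groups.

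RSAD2 (viperin), an enzyme that makes a chain-terminating nucleotide, lies on chromosome 2 (bases 6865806 to 6898239). It had 0.676, 1.27, 1.26 and 1.98 CPM in T288P+GDF11 wells, against 3.47, 3.40, 3.17 and 3.35 CPM in WT wells. The WT wells were close together and all above the treated wells. The log2 fold change was -1.37 (SE 0.36, edgeR adjusted p = 0.00827). M452I wells had 3.82, 2.61, 3.24 and 1.81 CPM and T288P wells 3.15, 0.952, 3.65 and 2.27 CPM, and T288P+GDF11 against T288P gave -0.94 (SE 0.36, edgeR adjusted p = 0.0896), short of the threshold except without T288P replicate 2.

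In the fit of all 16 wells, the alleles themselves gave no call among the members. M452I against WT had 0 of 39 called with edgeR, where 0.0238% of all genes were called, and 4 members (10.3%) had an unadjusted p under 0.05, as did 6.3% of all genes. T288P against WT had 0 of 39, where 0.0417% of all genes were called, with 1 member (2.56%) at an unadjusted p under 0.05, against 8.49% of all genes. M452I against T288P had 0 of 39, where 0.00596% of all genes were called, and 0 members reached an unadjusted p under 0.05, against 2.18% of all genes. Wells did not overlap for 0 members in that comparison, against 1.2% of all genes. DESeq2 and limma-voom also called 0 members in each of the 3. The median log2 fold changes were -0.01, 0.08 and -0.07 for the members in that order, against 0.03, 0.02 and 0.01 for all genes. Without M452I replicate 4 and T288P replicate 1, 640 of 17212 genes were called in M452I against WT and 698 in T288P against WT, and the members called stayed at 0 in both, while M452I against T288P had 2420 of 17212 genes and 2 members called (BST2 and DDX60). A p that misses the threshold does not show equal levels: for the 11 members averaging 10 CPM or more, intervals of 2 SE reached from -0.46 to 0.49 on the log2 scale in M452I against WT, from -0.63 to 0.55 in T288P against WT and from -0.49 to 0.54 in M452I against T288P.

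Among transcription factors, IRF1 had the lowest p after TRIM25 in M452I against WT. IRF1 starts the response to interferon gamma, and had 2.90, 3.67, 3.75 and 3.07 CPM in M452I wells, against 4.30, 5.17, 3.82 and 6.20 CPM in WT wells. All M452I wells were below all WT wells, as was the case for GBP1 wells, while IFI27 wells were all above (3 members without overlap, 7.69%, against 4.08% of all genes). None passed: IRF1 had a log2 fold change of -0.54 (SE 0.21, edgeR adjusted p = 0.752) and GBP1 one of -0.39 (SE 0.18, adjusted p = 0.780). TRIM25, whose wells overlapped, had -0.22 (SE 0.08, adjusted p = 0.752). T288P+GDF11 wells had 4.59, 2.62, 4.19 and 4.43 CPM of IRF1 and T288P wells 4.20, 3.62, 3.13 and 4.40 CPM. Without a stated strand setting, reads of IRF1 cannot be told from those of a gene on the opposite strand that overlaps 22.0% of its exon bases.

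STAT2, a subunit of the ISRE-binding complex, was the best expressed of the transcription factors. It had 23.9, 39.7, 28.4 and 34.3 CPM in T288P wells, against 24.6, 27.6, 24.1 and 28.9 CPM in WT wells. The T288P wells spanned a wider range that covered the WT wells, and the log2 fold change was 0.27 (SE 0.14, edgeR adjusted p = 0.626). T288P+GDF11 wells had 36.8, 28.4, 32.4 and 38.6 CPM and M452I wells 29.7, 23.7, 27.7 and 32.9 CPM. IRF7 and IRF9 averaged 4.60 and 4.63 CPM over all wells, and neither was called in any comparison by edgeR in the fit of all 16 wells. IRF7 was called in T288P+GDF11 against WT with only the 2 groups in the fit and without both outlying wells, and STAT2 in the same fits, by DESeq2, with a stricter filter and without T288P+GDF11 replicate 2.

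IFI27, a mitochondrial protein strongly induced by interferon alpha, had 1.22, 0.996, 1.88 and 1.65 CPM in T288P wells, against 1.29, 0.909, 1.28 and 0.682 CPM in WT wells. The groups overlapped, with a log2 fold change of 0.45 (SE 0.27, edgeR adjusted p = 0.673), and TRIM25 in the same comparison gave -0.21 (SE 0.08, edgeR adjusted p = 0.491). M452I wells had 1.55, 1.61, 1.67 and 1.36 CPM of IFI27 and T288P+GDF11 wells 0.999, 1.20, 1.04 and 1.18 CPM. Wells did not overlap for 0 members in T288P against WT, against 5.04% of all genes.

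Between the variant lines, the smallest p-values belonged to PSMB9, USP18 and BST2. PSMB9, a catalytic subunit of the immunoproteasome, had 0.495, 0.0833, 0.526 and 0.271 CPM in M452I wells, against 1.67, 0.736, 0.800 and 0.359 CPM in T288P wells. These overlapping groups gave a log2 fold change of -1.36 (SE 0.78, edgeR adjusted p = 1.000). T288P+GDF11 wells had 1.35, 1.07, 1.04 and 0.526 CPM of PSMB9 and WT wells 0.688, 0.338, 0 and 1.33 CPM. Its counts were low, from 0 in WT replicate 3 to 51 in T288P replicate 1. USP18, the protease that takes ISG15 off proteins and dampens receptor signalling, had 4.27, 3.58, 5.24 and 3.28 CPM in M452I wells, against 5.15, 6.17, 3.62 and 5.57 CPM in T288P wells. The groups overlapped, at -0.32 (SE 0.19, edgeR adjusted p = 1.000), and T288P+GDF11 wells had 5.17, 4.96, 4.83 and 3.93 CPM and WT wells 3.75, 4.36, 3.66 and 4.97 CPM.

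BST2 had 79.0, 76.0, 79.2 and 65.3 CPM in M452I wells, against 75.0, 63.6, 63.1 and 69.3 CPM in T288P wells. Its groups overlapped, with a log2 fold change of 0.14 (SE 0.09, edgeR adjusted p = 1.000). M452I replicate 4 was the lowest M452I well and T288P replicate 1 the highest T288P well, and without both the log2 fold change was 0.26 and passed (edgeR adjusted p = 0.0419). DDX60, an RNA helicase, was the other member called in that fit, in which 2420 of 17212 genes were called. T288P+GDF11 wells had 71.1, 80.0, 73.7 and 65.7 CPM of BST2 and WT wells 64.3, 67.3, 61.4 and 71.0 CPM.

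The remaining members with values by well were the best expressed of their roles, and edgeR called none of them in the fit of all 16 wells. OAS3, another synthetase of the OAS family, had 48.3, 37.1, 46.7 and 50.8 CPM in T288P+GDF11 wells and 50.6, 50.5, 51.1 and 64.2 CPM in M452I wells. It had 53.4, 48.7, 85.5 and 59.4 CPM in T288P wells and 58.5, 50.7, 63.6 and 52.8 CPM in WT wells. The treated wells were mostly lower than the T288P wells, with 1 overlap, at a log2 fold change of -0.43 (SE 0.15, edgeR adjusted p = 0.0621). OAS3 was called in that comparison by DESeq2, with the replicate number as a block, without T288P replicate 2 and without both outlying wells. It was called in T288P+GDF11 against WT with only the 2 groups in the fit. IFIH1 (MDA5), the sensor of long double-stranded RNA, had 9.44, 9.05, 9.32 and 8.51 CPM in T288P+GDF11 wells and 6.82, 8.28, 9.38 and 9.70 CPM in M452I wells, against 7.91, 9.11, 7.34 and 8.65 CPM in T288P wells and 7.22, 7.53, 7.66 and 7.73 CPM in WT wells. Its treated wells were all above the WT wells, but the log2 fold change of 0.27 (SE 0.13, edgeR adjusted p = 0.118) did not pass.

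PSMB8, the other listed immunoproteasome subunit, had 8.44, 10.4, 9.22 and 10.5 CPM in T288P+GDF11 wells and 11.5, 10.1, 11.0 and 8.38 CPM in M452I wells, against 8.54, 9.44, 10.4 and 11.2 CPM in T288P wells and 8.42, 9.06, 8.88 and 10.2 CPM in WT wells. All 4 groups overlapped. PARP14, an ADP-ribosyltransferase, had 33.8, 23.0, 32.2 and 30.7 CPM in T288P+GDF11 wells and 24.3, 20.4, 20.7 and 38.2 CPM in M452I wells, against 23.1, 28.3, 29.9 and 28.0 CPM in T288P wells and 28.5, 22.9, 31.0 and 22.7 CPM in WT wells. Its groups overlapped as well, with M452I replicate 4 the highest of all 16 wells.

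By role, in T288P+GDF11 against T288P the IFIT family had 1 of 4 measured members higher, the OAS family 1 of 4 lower, the ISG15 pathway (ISG15, USP18, HERC6 and TRIM25) 1 of 4 lower, and the mixed remainder 2 of 9 higher, where 5.07% of all genes were called higher and 7.88% lower. The transcription factors (4 measured), the IFITM proteins with BST2 (4), the PARP and SAMD9 families (4), the guanylate-binding GTPases (2), the RNA sensors (2) and the immunoproteasome subunits (2) had 0 called. Among these, IFITM3 averaged 26.7 ± 3.93 CPM in T288P+GDF11 wells and 32.2 ± 1.34 CPM in T288P wells (SD, n = 4 each), and ISG20, an RNA exonuclease of the mixed remainder, averaged 23.1 ± 3.50 and 17.7 ± 1.40 CPM. Wells did not overlap for either, and neither passed (edgeR adjusted p = 0.125 and 0.0959). GBP2 had a log2 fold change of 0.83 (SE 0.32, edgeR adjusted p = 0.0911) and IRF7 of -0.55 (SE 0.23, edgeR adjusted p = 0.119). ISG20 was called with only the 2 groups in the fit, and ISG20 and GBP2 without both outlying wells.

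**Figure D4:**
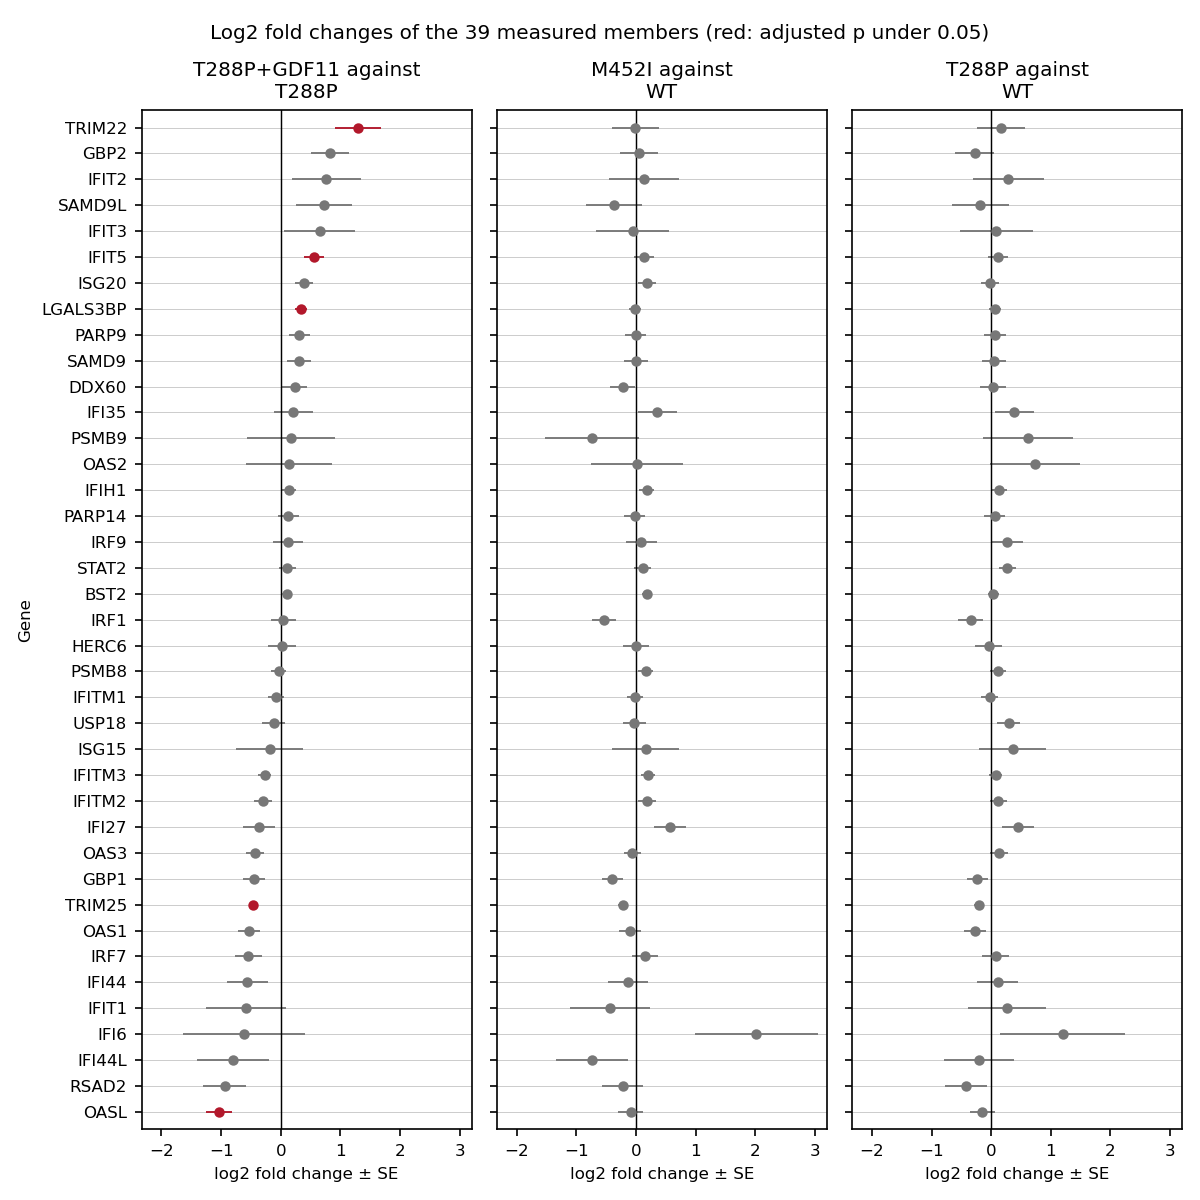
Log2 fold change ± SE of the 39 measured members in 3 comparisons (first-named group over the second), ordered by the first panel; red marks an edgeR adjusted p under 0.05. The 5 red points all lie in the T288P+GDF11 against T288P panel, with 3 to the right of 0 and 2 to the left.

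The rest of the pathway was read from a list of 40 further genes. Interferons themselves were nearly absent: of 9 ligand genes, IFNA2, IFNB1, IFNG, IFNL2 and IFNL3 had 0 counts in all 16 wells, and IFNE, an interferon of epithelia, was the only one to pass the filter. IFNE had 0.764, 1.05, 1.64 and 1.89 CPM in T288P+GDF11 wells, against 0.131, 0.346, 0.591 and 0.180 CPM in T288P wells. All treated wells were above all T288P wells, at a log2 fold change of 2.09 (SE 0.72, edgeR adjusted p = 0.0628), short of the threshold. M452I wells had 0.459, 0.306, 0.307 and 2.05 CPM, with replicate 4 the highest of all wells, and WT wells 0.315, 0.545, 0.809 and 0.0325 CPM.

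All 6 receptor genes were expressed, and in T288P+GDF11 against T288P, 4 of the 32 pathway genes measured passed, 2 higher and 2 lower, a share close to the 12.9% of all genes called (5.07% higher and 7.88% lower). IFNAR1, a chain of the type I interferon receptor, had 48.3, 48.0, 51.1 and 53.6 CPM in T288P+GDF11 wells, against 30.5, 40.8, 40.3 and 39.5 CPM in T288P wells. The groups did not overlap, and the log2 fold change was 0.41 (SE 0.12, edgeR adjusted p = 0.0288). IFNGR2, a chain of the interferon gamma receptor, had 77.8, 85.4, 86.4 and 81.4 CPM, against 65.4, 67.1, 67.0 and 74.4 CPM in T288P wells, at 0.27 (SE 0.08, edgeR adjusted p = 0.0342).

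JAK1, the kinase shared by the interferon receptors, was lower. It had 102, 94.7, 104 and 109 CPM in T288P+GDF11 wells, against 153, 137, 127 and 134 CPM in T288P wells. All treated wells were below all T288P wells, and the log2 fold change was -0.43 (SE 0.10, edgeR adjusted p = 0.00729). SOCS3, a feedback inhibitor of JAK signalling, had 5.12, 5.97, 5.73 and 6.56 CPM, against 11.1, 6.21, 13.8 and 8.32 CPM in T288P wells, at -0.75 (SE 0.23, edgeR adjusted p = 0.0387). Its groups overlapped through the lowest T288P well, replicate 2.

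The other receptor genes had no call in that comparison. Mean levels in T288P+GDF11 and T288P wells were 10.1 ± 0.733 and 7.84 ± 1.19 CPM for IFNAR2, 69.8 ± 4.20 and 67.7 ± 5.09 CPM for IFNGR1, 2.61 ± 0.703 and 3.08 ± 0.552 CPM for IFNLR1, and 22.1 ± 1.70 and 18.6 ± 2.22 CPM for IL10RB (SD, n = 4 each). M452I against WT, T288P against WT and M452I against T288P had 0 of the 32 called with edgeR.

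T288P+GDF11 against WT had 12 of the 32 pathway genes called, 4 higher and 8 lower, where 28.9% of all genes were called (13.8% higher and 15.1% lower). The higher ones were IFNAR1 (log2 fold change 0.57), IFNGR2 (0.32), the DNA-sensing adaptor STING1 (1.05) and the kinase IKBKE (2.56). The lower ones were JAK1 (-0.60), the negative regulators SOCS3 (-1.14), PIAS1 (-0.50), PTPN2 (-0.39) and PTPN11 (-0.23), the Toll-like receptor adaptor TICAM1 (-0.77), the RNA-editing enzyme ADAR (-0.33) and the nuclear body protein PML (-0.43). edgeR adjusted p-values ran from 0.000207 for JAK1 to 0.0285 for PTPN11. IKBKE rests on low levels, with 1.53, 1.36, 2.01 and 0.929 CPM in T288P+GDF11 wells, against 0.287, 0, 0.337 and 0.357 CPM in WT wells.

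Some markers of cell identity moved with the same contrast. Of the 8 epithelial genes, 1 was called higher (ITGA6) and 3 lower (CDH1, KRT5 and KRT17) in T288P+GDF11 against T288P. Of all genes, 5.07% were called higher and 7.88% lower. The summed level of the 8 genes was lower in each treated well than in each T288P well. Most of the sum came from genes that differed in direction. Means in treated and T288P wells were 1858 and 3225 CPM for KRT17, 1730 and 2344 CPM for KRT5, 4326 and 4298 CPM for LAMB3, and 1339 and 880 CPM for ITGA6. PECAM1, an adhesion molecule on the endothelial list, averaged 1.74 ± 0.667 CPM in T288P+GDF11 wells and 0.524 ± 0.239 CPM in T288P wells (SD, n = 4 each), at a log2 fold change of 1.72 (edgeR adjusted p = 0.00633). The other endothelial markers, VWF and CDH5, averaged under 0.05 CPM in every group. The 4 fibroblast markers summed to 5.75 to 8.36 CPM in T288P+GDF11 wells, against 3.95 to 5.49 CPM in T288P wells, with 0 called. Most of the sum was COL1A1, which averaged 6.11 and 4.90 CPM. DCN averaged 0.645 and 0.0531 CPM, at a log2 fold change of 3.45 (SE 1.17, edgeR adjusted p = 0.0594). It was called higher in T288P+GDF11 against WT, at 3.68 (SE 1.19, edgeR adjusted p = 0.0262). The 14 ribosomal protein genes had 0 called in all 5 comparisons. In bulk RNA, fewer cells of a kind and less RNA per cell cannot be told apart, and the part of these markers in the members' results was not tested.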

How the data were processed

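Whole-number counts per gene were deposited by the authors for 16 libraries, not normalized; the submitters' processing notes name HISAT2, without a version, StringTie 2.2.1 and build GRCh38. Which step gave the counts, with which annotation and strand setting, is not given in the sources used here. Values of 1 and 2 were about equally frequent (31005 and 29640 values), as were counts of 3 and 4 (15978 and 15213), so a count may stand for less than 1 fragment and counting-error floors are then too low. Libraries were grouped by their labelled allele and treatment, and 0 pairs of libraries were identical.

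Levels are counts-per-million values (CPM) scaled by trimmed mean of M-values (TMM) factors. Genes were kept by edgeR's filterByExpr (minimum count 10), and edgeR 4.0.16 (R 4.3.3; robust quasi-likelihood fit, 1 model of all 16 libraries) tested 5 comparisons, with Benjamini-Hochberg adjustment over 16790 genes. SE is the log2 fold change over the square root of F. The model fits by edgeR, DESeq2 and limma-voom were tested on simulated counts, and the other steps were not. Coordinates and exon lengths are from GENCODE release 29, promoters from RefSeq. Alternatives were DESeq2 1.42.0, limma-voom (limma 3.58.1), other size factors and filters, fits of 2 groups only, a replicate block, a 2-fold threshold, and omission of wells. The 45 members, the pathway and marker lists and the alternatives were chosen with earlier results of these data known. Well values are given for 18 members: those called in any comparison, the highest in each role, and the 3 with the smallest p in each comparison. Items withheld for evaluation are not reported here.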

Additional observations from a re-analysis of the deposited data

Results flagged for a closer look

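The 4 wells of each group were searched for 1 well standing apart in each of the 18 members with values by well, 72 groups in all, by the gap of the extreme well to its neighbour over the whole range (Dixon's 95% critical value). Chance flags about 1 in 20 groups, and 3 were found. OAS3 had 64.17 CPM in M452I replicate 4, against 50.5 to 51.1 CPM in the other M452I wells. LGALS3BP had 67.85 CPM in M452I replicate 4, against 56.6 to 58.4 CPM in the others. OASL had 4.198 CPM in T288P+GDF11 replicate 2, against 2.47 to 2.75 CPM in the other treated wells. M452I replicate 4 is also the M452I well with the lowest summed CPM of ribosomal protein genes, and the part of that in these values was not tested.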

How the results depend on the processing

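Over 22 pairs of a named member and a comparison, 351 alternative values were computed; 331 kept their direction and side of the threshold, 19 lost the call, 1 gained it and 0 reversed. These pairs were mostly ones already called or with the smallest p, so gains by other members are not among them: against T288P, OAS3 was gained with DESeq2, the replicate block, without T288P replicate 2 and without both outlying wells, OAS1 with DESeq2 and without T288P replicate 2, RSAD2 without T288P replicate 2, ISG20 with only the 2 groups in the fit and without both outlying wells, and GBP2 without both. Against WT, STAT2, ISG20, IRF7, PARP9, SAMD9, OAS3, IFIT2 and IFI6 were each gained in at least 1 alternative. TRIM25 and OASL kept their calls in T288P+GDF11 against T288P under all 16 alternatives run for each, and of the 8 calls against WT, GBP1 without a low-count filter was the only one lost. This holds apart from a 2-fold threshold, under which OASL and TRIM22 remained against T288P, and OASL, RSAD2 and TRIM22 against WT. The number of members called in T288P+GDF11 against T288P was 2 with a 2-fold threshold and 2 to 7 leaving out wells (2 without T288P replicate 1 or 3 or T288P+GDF11 replicate 1 or 3, 3 without T288P+GDF11 replicate 2); against WT it was 14 with only the 2 groups in the fit and 3 with a 2-fold threshold. TRIM22 lost its call against T288P with only the 2 groups in the fit (adjusted p = 0.0573), and IFIT5 without both outlying wells (0.0777). Without M452I replicate 4 and T288P replicate 1, M452I against T288P gave 2 members and 2420 genes, M452I against WT 640 genes and T288P against WT 698 genes. All-gene calls in M452I against WT were 30 with DESeq2, 0 with only the 2 groups in the fit, 2 with a 2-fold threshold and 1 to 9 leaving out wells; in T288P against WT 77 with DESeq2, 11 with no low-count filter, 2 with a 2-fold threshold and 1 to 16 leaving out wells; in M452I against T288P 3 with DESeq2 and 0 with only the 2 groups in the fit; in T288P+GDF11 against T288P 1391 with no low-count filter, 410 with a 2-fold threshold and 1028 to 1912 leaving out single wells, and 2356 without both outlying wells; and in T288P+GDF11 against WT 1109 with a 2-fold threshold. The members' median log2 fold change in T288P+GDF11 against T288P was 0.13 with no low-count filter, 0.10 with only the 2 groups in the fit and -0.0164 to 0.0932 leaving out wells; in M452I against T288P it was 0.00354 with limma-voom, -0.0166 with a filter of 50 counts in 4 libraries and -0.14 to 0.00341 leaving out wells; in T288P against WT it was 0.0417 to 0.14 and in T288P+GDF11 against WT 0.14 to 0.30 leaving out wells. The cause of these shifts was not tested.

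Pairing of wells by replicate number was not evident. Deviations of same-numbered wells correlated at -0.27 to 0.26 over 24 pairs, and in no pair of groups were all over 0.1. With so few wells a group, such correlations cannot show that same-numbered wells shared no batch. With the replicate number as a block, IFIT5 lost its call in T288P+GDF11 against T288P (edgeR adjusted p = 0.0502), T288P against WT had 1 gene called and the members' median in M452I against T288P was -0.0211. Depth limits the 15 members under 1 CPM, where a well of 28452772 counts has a floor of 0.105 CPM for 3 counts.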
